A study of Mus musculus with 8 samples.

Results

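Hox genes encode the homeodomain transcription factors that lay down position along the body axis, and their transcripts were followed here in the first part of the mouse small intestine with and without Pdx1 in the epithelium. The members were all probe sets whose only gene symbol in the platform annotation was Hoxa, Hoxb, Hoxc or Hoxd followed by a number. They came to 48 of 45037 probe sets tested and stood for 33 of the 39 Hox genes in the RefSeq gene table. The other Hox genes were not analysed here, and 3 probe sets that carried the names of a pair of Hox genes were left out. Each array held whole tissue from the 5 cm next to the pylorus of a male mouse aged 6 months, on a diet with 4.5% fat. The 4 knockout mice were Pdx1flox/flox;VilCre, with exon 2 of Pdx1 between loxP sites and Cre driven by a 12.4 kb villin promoter fragment, so that the deletion was directed to the epithelium and not to muscle, nerve or connective tissue. The 4 control mice were Pdx1flox/flox, homozygous for the same floxed allele without the Cre transgene, and both groups were described as brothers from shared litters. The study asked which transcripts of the mature proximal intestine depend on Pdx1.

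Mammalian Hox genes lie in 4 clusters, and the genes at matching places in the clusters form paralog groups numbered from 1, at the anterior end of expression, to 13, at the posterior end. In the embryonic gut they are switched on in nested domains, chiefly in the mesoderm that becomes muscle and connective tissue and also in parts of the epithelium, and the last groups mark the hindgut. Pdx1 belongs to the ParaHox family, the sister family of the Hox genes, together with the Cdx genes that specify intestinal epithelium.

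The deposited values were log2 intensities between 2.55 and 14.83, and array medians lay between 5.23 and 5.27. The targeted gene was measured first. On the brighter of its probe sets Pdx1 read 8.33, 8.61, 8.16 and 8.98 in controls 1 to 4 and 6.04, 5.91, 6.18 and 5.58 in knockouts 1 to 4. Every knockout value lay below every control value, a log2 change of -2.59 (adjusted p = 4.16e-04 in limma), and the other probe set had -1.85. Which exon these probes read is not given in the sources used here. Epithelial markers were bright in both groups, from 12.83 to 12.90 on average in controls and from 12.89 to 13.09 in knockouts over 10 genes. All 10 lay above 0 in log2 change, with a median of 0.10. In limma 2 of the 10 had an unadjusted p under 0.05, beside 7.13% of all probe sets, and 0 passed the threshold. In whole tissue, fewer cells of a type and less RNA per cell cannot be told apart.

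No Hox probe set passed the threshold for a change in the knockout. Of the 48, 0 passed at an adjusted p under 0.05 in limma, beside 0.0422% of all probe sets tested, and the lowest adjusted p among them was 0.579. At an unadjusted p under 0.05 there were 5, or 10.4% of the Hox probe sets against 7.13% of all probe sets. Of these 5, 2 had lower values in the knockout, 4.17% against 3.62% of all probe sets, and 3 had higher values, 6.25% against 3.5%. Without control 1 the count of 5 became 2. Control and knockout values did not overlap for 2 probe sets, 4.17% of the members against 4.43% of all probe sets. These shares rest on a few probe sets each and are given as a description.

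The sizes of the differences in the whole-tissue signal were small and their intervals narrow. Log2 changes, knockout minus control, ran from -0.27 for Hoxd13 to 0.23 for Hoxa3, so that the largest corresponded to a 1.20-fold difference. There were 26 probe sets above 0 and 22 below, with a median of 0.0091, beside a median of 4.75e-05 over all probe sets tested. The median size without regard to sign was 0.089, against 0.072 over all. The 95% intervals had half-widths from 0.13 to 0.25. For all 48 probe sets the interval stayed inside a log2 change of 0.5 in either direction, and for 30 it stayed inside 0.3. The bound farthest from 0 was -0.45, on Hoxd13, a 1.37-fold difference in the measured signal. These intervals hold for signals as deposited, and in a dim probe set an unknown share of background can make the change of the transcript look smaller than it was. They also hold for whole tissue and do not bound a change within the epithelium alone. How much of each Hox signal came from the epithelium was not measured.

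**Figure D1:**
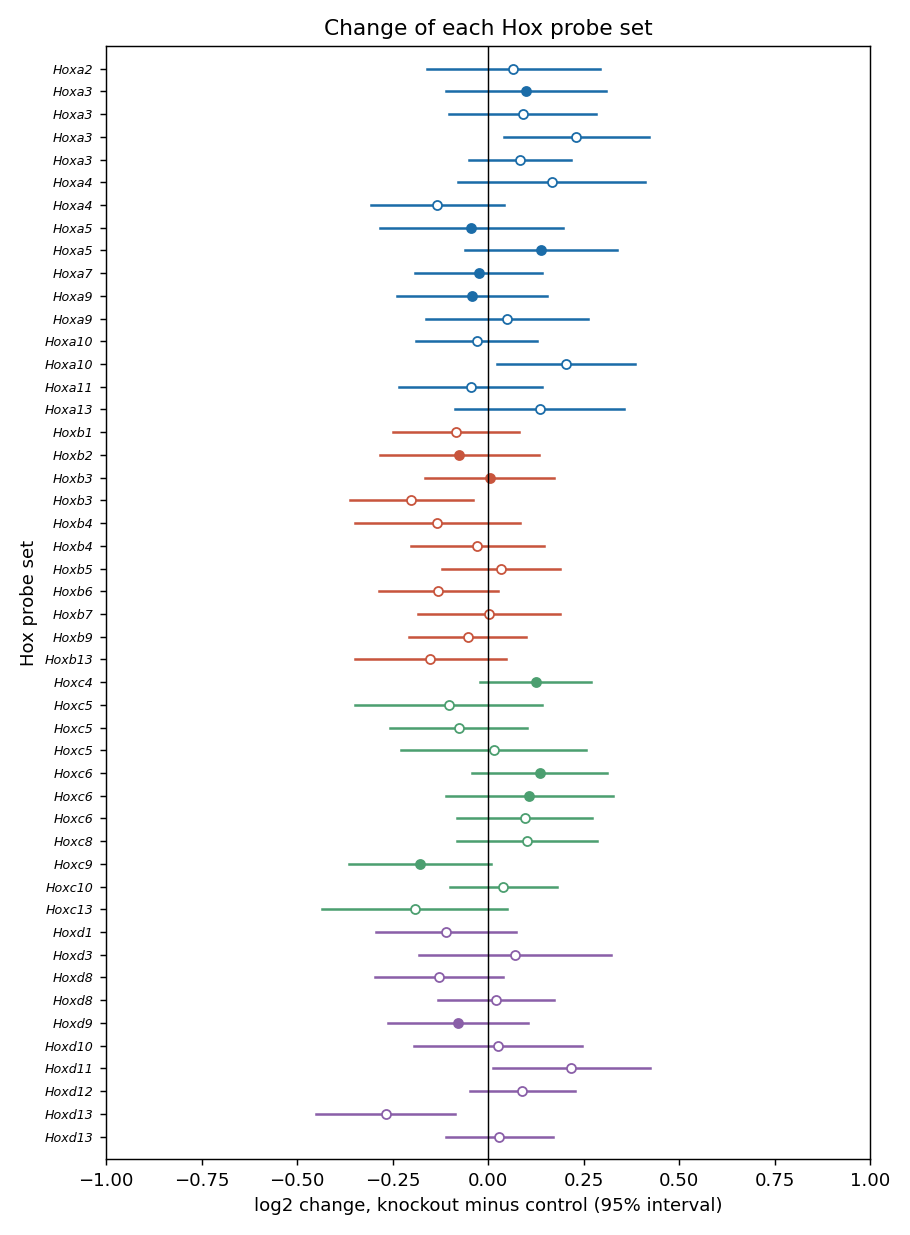
Log2 change, knockout minus control, with its 95% interval from limma for each of the 48 Hox probe sets (n = 4 arrays a group), ordered from top to bottom by cluster and paralog group and coloured by cluster. Filled points are probe sets brighter than the olfactory receptor reference, and all points lie between -0.27 and 0.23.

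How many Hox transcripts the tissue showed at all was judged against genes with little expected expression in gut, since the table held no detection calls. The 43 olfactory receptor probe sets had a median of 3.996, and the 95th percentile of their means was 5.32. Brightness differs between probes for reasons other than transcript number, so this reference is rough and puts no Hox gene above another. It lay just above the array medians of 5.23 to 5.27, and the share of all probe sets above it was not counted. The counts that follow therefore do not say whether Hox probe sets were bright or dim beside other genes. By this measure 12 of the 48 Hox probe sets, from 10 genes, were above the reference. They were Hoxa3, Hoxa5, Hoxa7, Hoxa9, Hoxb2, Hoxb3, Hoxc4, Hoxc6, Hoxc9 and Hoxd9, all within paralog groups 2 to 9. In paralog groups 10 to 13, 0 of 12 probe sets from 10 genes were above it, and their means ran from 3.22 to 4.77, the highest being Hoxb13. Group 1, with 0 of 2 probe sets, and group 8, with 0 of 3, also had none above it. Of the 12 brighter probe sets, 6 had a log2 change above 0 and 6 below, from -0.18 to 0.14, and 0 reached an unadjusted p under 0.05.

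**Figure D2:**
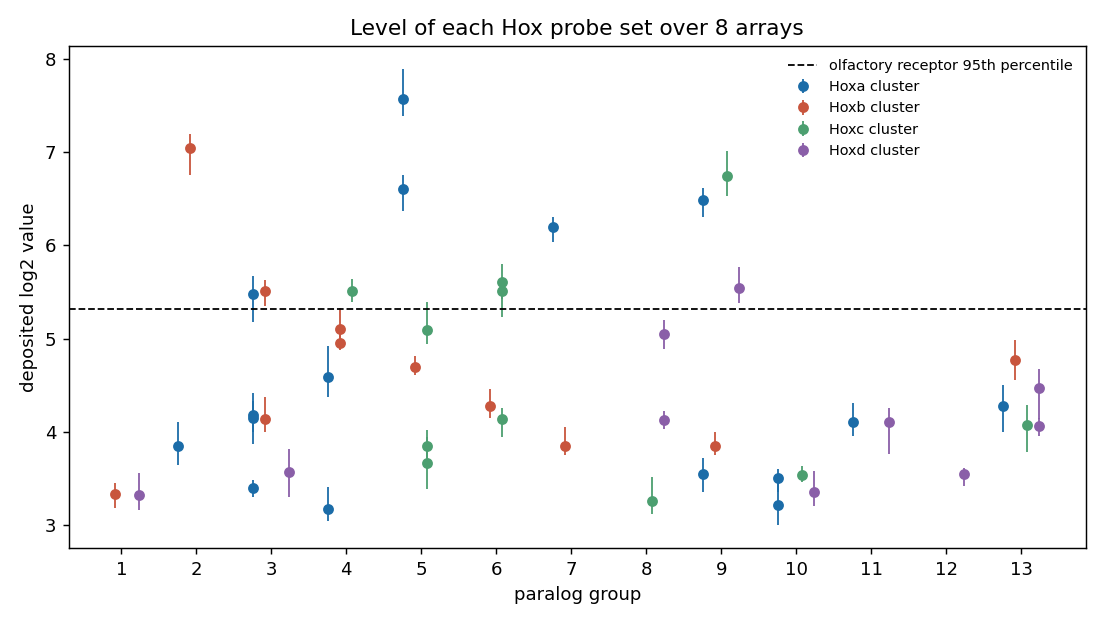
Mean deposited log2 value of each Hox probe set over the 8 arrays, by paralog group, with bars from the lowest to the highest array and colours for the 4 clusters. The dashed line is the 95th percentile of 43 olfactory receptor probe sets, at 5.32. No probe set of paralog groups 1, 8 or 10 to 13 lies above it.

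The member with the smallest p was Hoxd13, a gene of the last paralog group known for its part in digits and the hindgut. It read 4.67, 4.66, 4.52 and 4.58 in controls 1 to 4 and 4.43, 4.13, 4.37 and 4.42 in knockouts 1 to 4. The knockout values lay below the control values without overlap, at 4.34 ± 0.14 against 4.61 ± 0.071 (SD, n = 4 each). The difference of -0.27, with an interval from -0.45 to -0.087, did not pass after adjustment (adjusted p = 0.579 in limma). The other Hoxd13 probe set had 0.029 (adjusted p = 0.949 in limma), and its interval, from -0.11 to 0.17, did not reach -0.27.

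Hoxb3, an anterior gene of the hindbrain and pharyngeal arches, was the other member whose groups did not overlap. Its dimmer probe set read 4.38, 4.12, 4.28 and 4.18 in controls 1 to 4 and 4.01, 4.04, 4.0 and 4.09 in knockouts 1 to 4. The highest knockout value was just under the lowest control value, and the difference was -0.20 (adjusted p = 0.648 in limma). The brighter Hoxb3 probe set, at 5.51 ± 0.11 in controls and 5.51 ± 0.083 in knockouts (SD, n = 4 each), had 0.0041.

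Of the 3 probe sets with higher values, 1 belonged to Hoxa3, an organiser of thymus and parathyroid development. It read 3.87, 4.05, 4.01 and 4.19 in controls 1 to 4 and 4.26, 4.41, 4.16 and 4.22 in knockouts 1 to 4. The groups overlapped through control 4, and the difference was 0.23 (adjusted p = 0.660 in limma). Hoxa3 had 3 more probe sets, and these had 0.099, 0.090 and 0.083, so all 4 lay above 0. The first of them was built on the same public transcript sequence as the 1 described, according to the platform annotation, so the 4 are not independent readings.

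Hoxa10, known from the uterus and from blood cell development, had its higher value on the dimmer of its probe sets. Controls 1 to 4 read 3.20, 3.20, 2.995 and 3.07, and knockouts 1 to 4 read 3.17, 3.31, 3.45 and 3.36. Knockout 1 fell among the controls, and the difference was 0.20 (adjusted p = 0.676 in limma). The other Hoxa10 probe set had -0.031, opposite in sign.

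Hoxd11, a gene of limb and kidney patterning, read 3.94, 4.13, 4.14 and 3.76 in controls 1 to 4 and 4.22, 4.11, 4.24 and 4.26 in knockouts 1 to 4. The groups overlapped, with knockout 2 below controls 2 and 3. Its difference was 0.22, with an interval from 0.012 to 0.42 (adjusted p = 0.690 in limma). All 5 of these probe sets were dim. Their highest single value was 4.67, below the median of every array and below the olfactory receptor reference.

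**Figure D3:**
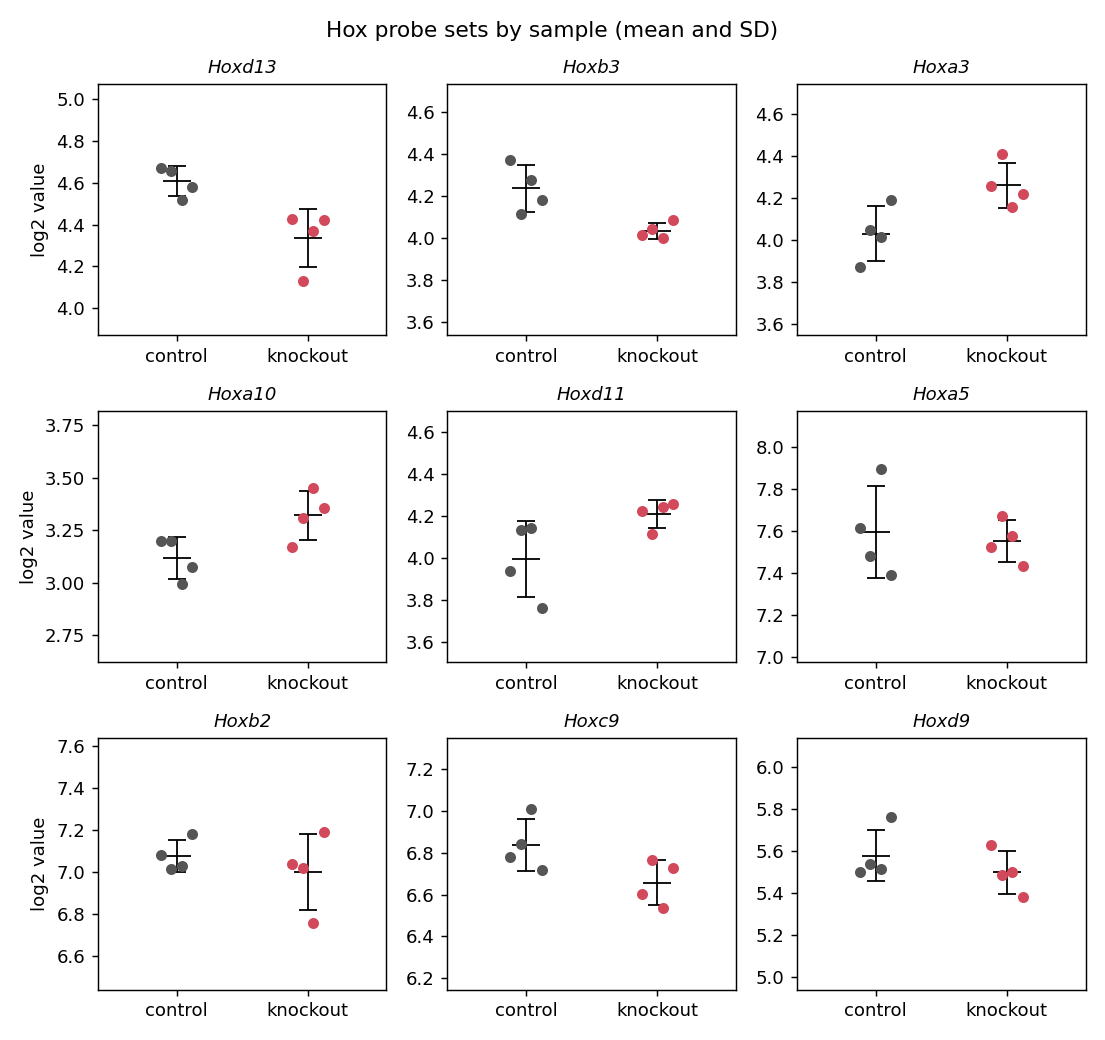
Deposited log2 values by sample for the 5 Hox probe sets with an unadjusted p under 0.05 and for the brightest probe set of each cluster, with the mean and SD of 4 arrays a group. Each panel spans the same log2 range, and control and knockout points are apart only for Hoxd13 and Hoxb3.

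Genes with several probe sets gave little repeat of direction. There were 11 such genes, and in 8 of them the probe sets fell on both sides of 0. The 3 with a common sign were Hoxa3 and Hoxc6 above 0 and Hoxb4 below. Hoxc6, a central gene of the thoracic region, had 0.13, 0.11 and 0.095 on its 3 probe sets. Hoxb4, which is known for expanding blood stem cells, had -0.13 and -0.028, on probe sets that share 1 public transcript sequence.

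For the brightest probe set of each cluster, control and knockout values overlapped. Hoxa5, known for patterning lung and foregut mesenchyme, was the brightest of the Hoxa cluster. It read 7.62, 7.48, 7.90 and 7.39 in controls 1 to 4 and 7.52, 7.67, 7.58 and 7.43 in knockouts 1 to 4. The knockout values all lay within the range of the controls, and the difference was -0.045 with an interval from -0.28 to 0.19. The other Hoxa5 probe set had 0.14, with an interval from -0.062 to 0.34.

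Hoxb2, an anterior gene of the hindbrain, was the brightest of the Hoxb cluster. It read 7.08, 7.02, 7.03 and 7.18 in controls 1 to 4 and 7.04, 7.02, 6.76 and 7.19 in knockouts 1 to 4. Knockout 3 was the low sample, and the other 3 knockouts lay close to the controls. The difference was -0.075, with an interval from -0.28 to 0.13.

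Hoxc9, a gene of the lower thoracic region, was the brightest of the Hoxc cluster and had the smallest p of the brighter members. It read 6.78, 6.84, 7.01 and 6.72 in controls 1 to 4 and 6.60, 6.76, 6.53 and 6.73 in knockouts 1 to 4. The groups overlapped, with knockouts 1 and 3 below all controls. The difference of -0.18, with an interval from -0.37 to 0.0081, did not pass (adjusted p = 0.715 in limma).

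Hoxd9, a paralog of Hoxc9, was the brightest of the Hoxd cluster. It read 5.50, 5.54, 5.52 and 5.76 in controls 1 to 4 and 5.63, 5.49, 5.50 and 5.38 in knockouts 1 to 4. The groups overlapped, and the difference was -0.079. In paralog group 9, all 4 genes had values below 0 on their brightest probe sets, the remaining pair being Hoxa9 at -0.043 and Hoxb9 at -0.054. None of the 4 had an interval that left out 0, and the dimmer Hoxa9 probe set had 0.050. Other groups also kept to 1 side of 0 on brightest probe sets, with 3 of 3 genes above 0 in group 3 and 0 of 2 in group 1.

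The remaining 39 probe sets had differences between -0.19 for Hoxc13 and 0.17 for Hoxa4, with a lowest adjusted p of 0.740 in limma. Counted by gene on its brightest probe set, the anterior genes (paralog groups 1 to 4) had 6 of 10 above 0, with a median of 0.035. The central genes (groups 5 to 8) had 4 of 9 above 0, with a median of -0.025. The posterior genes (groups 9 to 13) had 5 of 14 above 0, with a median of -0.045. By cluster, 4 of 9 Hoxa genes, 3 of 9 Hoxb genes, 4 of 7 Hoxc genes and 4 of 8 Hoxd genes lay above 0. These medians were all smaller than the half-width of any single probe set's interval. That half-width does not measure the spread of a median, and the medians were not tested.

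Position along the clusters was followed for the Hoxd genes in their RefSeq order. From Hoxd13 the brightest probe sets had -0.27, then 0.089 for Hoxd12, 0.22 for Hoxd11, 0.026 for Hoxd10, -0.079 for Hoxd9 and -0.13 for Hoxd8. Hoxd3 had 0.070 and Hoxd1 had -0.11. Neighbours thus took both signs. In paralog group 13 the genes did so too, with Hoxa13 at 0.13, Hoxb13 at -0.15, Hoxc13 at -0.19 and Hoxd13 at -0.27.

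Promoter sequence was examined because the deleted factor is itself a homeodomain protein, whose family recognises cores with the letters TAAT. RefSeq promoters of GRCm38.p6, 250 bases before to 50 after a gene's start, were matched for 19 of the 33 member genes, with 21 sequences. The letters TAATTA, which read the same on both strands, were found in 2 of the 21, both of Hoxd11, and in 5.29% of all 32851 promoters in the table. Hoxd11 is shown for these matches and because it is among the 5 members with an unadjusted p under 0.05. The first lies at chr2:74679308-74679607 and the second at chr2:74682073-74682372, both on the plus strand, and capitals mark the match. Hoxa5, at chr6:52204538-52204837 on the minus strand, is shown as the promoter of the brightest member, with each CG in capitals and no TAATTA. The shorter letters TAAT, which were not counted in any promoter, do occur in this Hoxa5 window.
Hoxd11, first promoter: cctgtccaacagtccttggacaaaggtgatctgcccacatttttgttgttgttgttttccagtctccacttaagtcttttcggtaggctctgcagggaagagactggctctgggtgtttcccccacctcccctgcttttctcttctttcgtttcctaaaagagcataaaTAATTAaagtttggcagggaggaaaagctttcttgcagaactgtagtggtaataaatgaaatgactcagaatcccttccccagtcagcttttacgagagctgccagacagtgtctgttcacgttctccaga
Hoxd11, second promoter: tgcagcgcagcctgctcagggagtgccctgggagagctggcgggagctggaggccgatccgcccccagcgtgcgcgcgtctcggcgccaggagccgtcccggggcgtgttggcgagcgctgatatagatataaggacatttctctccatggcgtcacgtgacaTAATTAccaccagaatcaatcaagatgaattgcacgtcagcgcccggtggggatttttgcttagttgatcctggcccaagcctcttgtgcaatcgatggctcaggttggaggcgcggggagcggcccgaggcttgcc
Hoxa5: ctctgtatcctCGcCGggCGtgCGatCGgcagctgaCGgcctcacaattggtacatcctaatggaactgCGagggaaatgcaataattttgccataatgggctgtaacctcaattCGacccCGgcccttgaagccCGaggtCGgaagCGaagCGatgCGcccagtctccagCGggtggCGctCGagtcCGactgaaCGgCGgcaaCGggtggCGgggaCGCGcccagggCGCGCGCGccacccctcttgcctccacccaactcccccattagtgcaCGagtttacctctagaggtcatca
The Hoxa5 window held 29 CG pairs, 1.02 times the number its C and G content predicts. Over the 21 Hox promoters that ratio had a median of 0.60 and over all promoters 0.38, with a median G and C content of 58.0% against 52.7%. The Hox and Pbx composite letters TGATNNAT, searched on both strands, were in 3 of 21 Hox promoters (Hoxa2, Hoxb1 and the second of Hoxd11) and in 8.85% of all. The letters TTTATG, a form of the Cdx site, also searched on both strands, were in 3 of 21 (Hoxa7, Hoxd3 and the first of Hoxd11) and in 11.9% of all. A match describes these letters only.

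The spread between animals was close to that of other genes. The within-group SD had a median of 0.11 over the 48 probe sets, from 0.039 to 0.18, and a median of 0.13 over the 32029 probe sets in the same range of brightness. Averaged over the 33 genes, each array's deviation from the gene means ran from -0.022 to 0.047 in controls and from -0.073 to 0.047 in knockouts. Knockout 3 was the lowest array and control 3 and knockout 4 were the highest, so the groups overlapped.

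Among the ParaHox genes, Pdx1 was 1 of 6 to pass and fell, while 0 rose. Cdx2, the master factor of intestinal epithelium, read 9.68, 9.59, 9.51 and 9.78 in controls 1 to 4 on its brighter probe set and 9.68, 9.74, 9.72 and 9.67 in knockouts 1 to 4. These overlapped, with a difference of 0.064. Its other probe set read 8.94, 8.83, 8.97 and 8.87 against 9.12, 9.18, 9.22 and 9.004, with the groups apart. That difference of 0.23 did not pass (adjusted p = 0.595 in limma). Cdx1, its partner in the epithelium, read 8.53, 8.87, 9.03 and 8.49 in controls and 9.01, 9.05, 9.09 and 8.85 in knockouts. The groups overlapped, with a difference of 0.27 (adjusted p = 0.701 in limma). Gsx2, a gene of the developing forebrain, read 5.22, 5.45, 5.23 and 5.29 in controls and 4.99, 5.12, 5.04 and 5.22 in knockouts. The groups were apart by a narrow margin, with a difference of -0.21 (adjusted p = 0.662 in limma).

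Hox proteins bind DNA with TALE homeodomain partners, the Meis, Pbx and Pknox families. Of 9 listed, 8 were measured and 0 passed, with 5 below 0 and a median of -0.075. Meis1 read 6.11, 6.09, 6.35 and 6.39 in controls 1 to 4 and 6.17, 6.05, 5.84 and 5.84 in knockouts 1 to 4. Knockouts 3 and 4 were low and knockout 1 lay among the controls, with a difference of -0.26 (adjusted p = 0.676 in limma). The other Meis1 probe sets had 0.038 and -0.13. Meis2 had -0.25 on its brightest probe set (adjusted p = 0.697 in limma), and -0.25 and -0.21 on a further pair with an unadjusted p under 0.05. The remaining Meis2 probe set had -0.23 and did not reach that p. Pknox1 had -0.16, and its knockout values, 8.04, 8.06, 7.96 and 8.0, all lay below its control values of 8.14, 8.14, 8.10 and 8.32 (adjusted p = 0.693 in limma). Its other probe sets had 0.014 and -0.024.

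**Figure D4:**
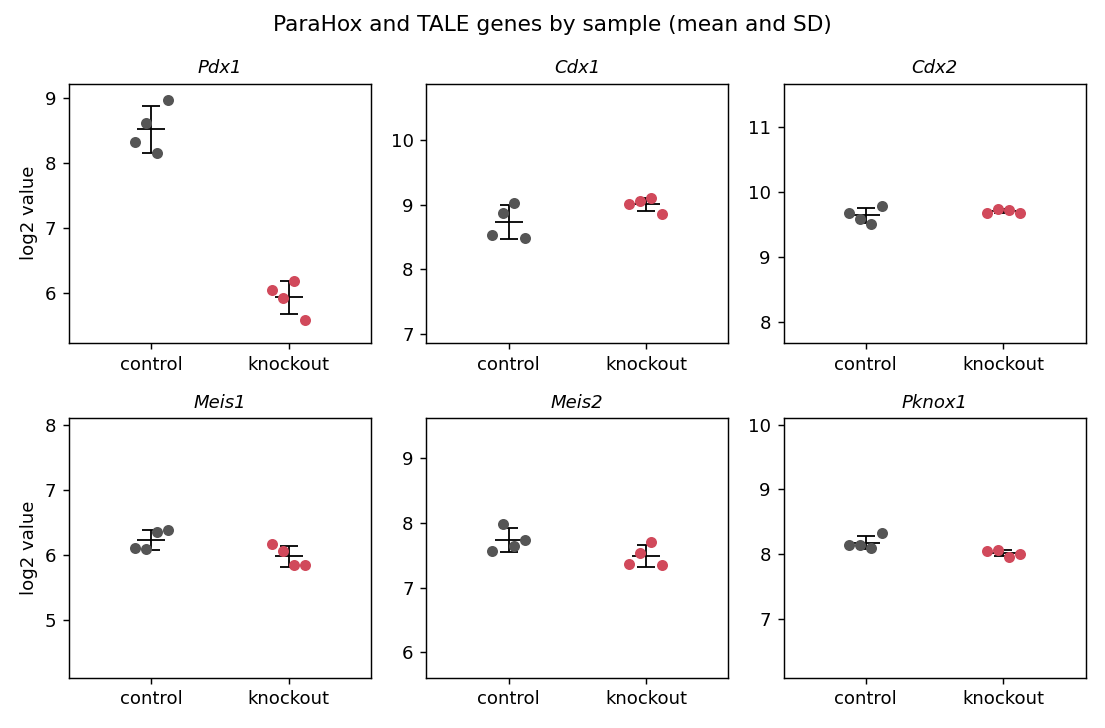
Deposited log2 values by sample for Pdx1, the related ParaHox genes Cdx1 and Cdx2 and the Hox partners Meis1, Meis2 and Pknox1, each on its brightest probe set, with the mean and SD of 4 arrays a group. All panels span the same log2 range, in which only Pdx1 passed the test.

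The other lists around the Hox system held 0 genes past the threshold in limma. Of 16 measured genes and transcripts in or beside the clusters, 8 lay above 0 and 8 below. Lnpk, a neighbour of the Hoxd cluster that encodes an endoplasmic reticulum protein, read 6.70, 6.72, 6.34 and 6.73 in controls 1 to 4 and 6.91, 6.95, 7.07 and 7.13 in knockouts 1 to 4 on its brightest probe set. The groups were apart, with a difference of 0.39 (adjusted p = 0.507 in limma), while its other probe sets had -0.21 and 0.041. The antisense transcript Hoxb5os had -0.15 and Jazf1 had 0.098. Jazf1 was dim, with means of 4.26 in controls and 4.35 in knockouts, below the olfactory receptor reference. Of 20 Polycomb and Trithorax proteins, which keep Hox genes silent or active, 9 lay above 0, with Cbx8 at 0.32 on its brighter probe set and -0.014 on the other, Phc1 at 0.17 and Suz12 at -0.12. Of 12 genes of retinoid and Gdf11 signalling, which set Hox domains in the embryo, 6 lay above 0, with the receptor Rarb at -0.31. Of 10 genes listed for foregut and hindgut position 6 lay above 0, with Onecut2 at -0.26 and Gata6 at 0.16 on their brightest probe sets. That list also holds Foxf1 and Foxl1, which are among the fibroblast and mesenchyme markers too. In it 4 of the 10 genes were below the olfactory receptor reference, so the count says little about position.

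Markers of the tissues in which Hox genes are known to act held no gene past the threshold in limma. Smooth muscle markers lay above 0 in 12 of 12 cases (median 0.21), with mean levels from 8.85 to 8.99 in controls and from 8.94 to 9.29 in knockouts. Fibroblast and mesenchyme markers lay above 0 in 10 of 12 (median 0.040), from 8.32 to 8.64 in controls and from 8.46 to 8.58 in knockouts. Enteric neuron and glia markers lay above 0 in 1 of 10 (median -0.067), from 6.08 to 6.24 and from 5.98 to 6.16. An unadjusted p under 0.05 in limma was reached by 4 of 12 smooth muscle markers. For fibroblast and mesenchyme markers it was 0 of 12 and for neuron and glia markers 2 of 10, beside 7.13% of all probe sets. Exocrine pancreas markers lay below 0 in 13 of 13, with mean levels from 11.83 to 14.06 in controls and from 12.57 to 13.47 in knockouts, a high signal in every array. Colon markers lay below 0 in 3 of 5, ileum markers in 2 of 5, stomach markers in 7 of 7, pancreatic islet markers in 5 of 5, endothelial markers in 3 of 8 and leukocyte markers in 2 of 7. None of these further lists had a gene past the threshold. The part of the muscle, mesenchyme, neuron, pancreas and colon markers in the Hox values was not tested. With their scores as covariates 0 Hox probe sets passed, as without them, so these fits cannot measure that part.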

How the data were processed

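Total RNA of 8 proximal small intestines was labelled with biotin and hybridised to 1-channel Affymetrix arrays, per the labels' protocols. The authors deposited 1 table of log2 values. Its log2 scale was taken from the values, the submitters' processing notes list Partek 6.4 without a role, and how background was corrected and arrays were normalized is not stated in any source here. Gene symbols came from GEO's platform annotation, and all 33 Hox genes were matched to RefSeq by Entrez identifier. Of 45101 probe sets, 64 array controls were left out.

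Knockout minus control was fitted over all 45037 probe sets with limma 3.58.1 (lmFit and eBayes, two-sided, Benjamini-Hochberg) in R 4.3.3, with 4 arrays a group and no block. The steps were tested on simulated data. Where a gene needed 1 value, its brightest probe set was used. Values by sample were given for Pdx1, for Hox probe sets at an unadjusted p under 0.05 and for the brightest Hox probe set of each cluster. Cdx1, Cdx2 and up to 3 members of each related list by smallest p were named, some of them with values by sample, which was decided after their values were seen. The members and lists were chosen with earlier results of these data known. The number of arrays limits the precision.

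Replicate numbers are shared between the groups, but they do not name a litter, and same-numbered arrays did not deviate together (r between -0.18 and 0.076 over 4 pairs). Over the 12 pairs with different numbers r lay between -0.47 and 0.60, highest for knockout 3 with control 2 and next, at 0.39, for knockout 4 with control 1.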

Additional observations from a re-analysis of the deposited data

Results flagged for a closer look

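In a group of 4 arrays, a single array stood far from the other 3 for 6 of the 100 group and probe set combinations examined (48 Hox and 2 Pdx1 probe sets in both groups), where chance gives about 1 in 20. Control 4 was the distant array in 3 of them, reading 5.18 on a Hoxa3 probe set (others 5.49 to 5.53), 3.65 on Hoxd3 (others 3.48 to 3.50) and 5.76 on Hoxd9 (others 5.50 to 5.54). Control 3 read 3.41 on the dimmer Hoxa4 probe set, above the other controls at 3.16 to 3.20. Knockout 4 read 3.51 on Hoxc8 (others 3.21 to 3.25) and 4.14 on the dimmer Hoxd13 probe set (others 4.04 to 4.06).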

How the results depend on the processing

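The count of Hox probe sets past the threshold stayed at 0 under all 22 alternatives run, and the lowest adjusted p in limma was 0.266, with a colon marker score as covariate. The covariate fits with colon and with fibroblast and mesenchyme scores were chosen after seeing the data. The count at an unadjusted p under 0.05, 5 as reported, was 10 with the colon score, 1 with values under 5 set to 5, and 0 of 15 probe sets with a mean of at least 5. With the replicate number as a block it was 3, though the numbers are not known to pair the samples and 0 of 4 knockouts correlated best with their own number. Leaving out 1 array at a time gave 2 to 5, the lowest without control 1. The median Hox log2 change was -0.043 over probe sets with a mean of at least 5, and from -0.0043 to 0.027 with 1 array left out. Of 188 values for the 9 Hox probe sets shown by sample, 182 kept their sign. Hoxa5, at -0.045 as reported, had 0.023 with the fibroblast and mesenchyme score. It ran from -0.11 to 0.054 with 1 array left out, above 0 only without control 3. It moved farther from 0 with the colon score, to -0.31, the fit that gave the adjusted p of 0.266 in limma. With the enteric neuron and glia score it had -0.19. Hoxb2 had 0.039 with the colon score, 0.077 with the enteric neuron and glia score, 0.092 with the smooth muscle score and from -0.14 to 0.0068 with 1 array left out, above 0 only without knockout 3. The cause was not tested. With values under 5 set to 5, the 5 dim probe sets shown by sample were constant and gave no change, though they stayed among the 48 counted. Signal over background limits the 36 probe sets at or below the olfactory receptor reference, and the count above it was 16 at the 90th percentile and 12 at the 99th.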
